A study of Zea mays with 18 samples.

Results

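The microRNAs (miRNAs) of the miR395 family were followed in leaf and root of maize (Zea mays) seedlings kept at sufficient phosphate or moved to low phosphate. Every listed miRNA whose name starts with zma-miR395 was taken, both the guide strands and the star strands, the latter written with an asterisk. The sufficient-phosphate table held 19 such rows of 246, with 11 guide and 8 star rows. The low-phosphate table held 20 of 207, with 14 guide and 6 star rows. Rows that had the same value in every library were merged into 1 entry. That left 7 miR395 entries among 197 in the sufficient-phosphate table, and 6 among 156 in the other. Over both tables there were 22 names, of which 3 (zma-miR395c, zma-miR395l and zma-miR395m) were listed only at low phosphate and 2 (zma-miR395a* and zma-miR395i*) only at sufficient phosphate.

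A plant miRNA is cut as a short duplex from a hairpin precursor. The guide strand is kept by an Argonaute protein and pairs with target messenger RNAs, while the star strand is usually degraded. Guides of the miR395 family target mRNAs of ATP sulfurylase, the enzyme that activates sulfate for assimilation, and in Arabidopsis also the mRNA of the sulfate transporter SULTR2;1. In Arabidopsis the family is known for its strong accumulation when sulfate is short. The data hold small RNA only, so no target mRNA was measured, and the organ of a library could not be checked against mRNA markers.

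The plants were seedlings of the inbred line Q319 in nutrient solution, and each biological repeat pooled 15 to 20 of them. At sufficient phosphate (SP) the solution held 1000 μM KH2PO4, and each organ had 2 libraries on day 0 (3-leaf stage) and 2 on day 8 (4-leaf stage). At low phosphate (LP) it held 5 μM KH2PO4, with KCl in place of the rest. Leaf and root were each sampled as 1 library per day, on days 1, 2, 4 and 8, and set against 1 library of day 0, the start of the treatment. The phosphate content of the medium of these day 0 libraries is not stated. They are counted below as the first day of the LP course. Libraries of days 0 to 4 carried the 3-leaf stage and those of day 8 the 4-leaf stage, so days at LP and age cannot be told apart within that course. Both solutions contained 0.65 mM K2SO4 and 0.65 mM MgSO4, so the named sulfate salts were the same in the 2 media. The labels of the root SP libraries of day 8 conflict, with day 8 in the titles and in the leaf stage but day 0 in the source name, and the titles were followed.

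The SP values were counts, with 8528196 to 14285855 counts per library over all listed miRNAs. The LP values were reads per 1000000 clean reads (RPM), from 12885000 to 21385000 clean reads per library. At those depths a floor of 3 reads equals 0.14 to 0.233 RPM. All counting intervals given here are exact 95% intervals, and they cover counting error only. In whole organs, fewer cells that make a small RNA and less of it per cell cannot be told apart.

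The rows of the family shared their reads. At SP, zma-miR395a stood for 8 rows with identical counts and zma-miR395e for 3. These 2 guide entries differed from each other by 1 count in 1 of 8 libraries, where root on day 8 had 8 counts for zma-miR395a and 9 for zma-miR395e. At LP they stood for 7 and 4 rows, and differed in leaf on day 8 alone, with 166 reads for zma-miR395a and 169 for zma-miR395e. The main guide is therefore 1 measurement under 2 entries, and, except for the nearest profiles, it is described below by zma-miR395a. A distinct guide was zma-miR395c, which had the same LP values as zma-miR395l and zma-miR395m. Among the star strands, zma-miR395e* stood for 4 rows in each table, and zma-miR395b* and zma-miR395n* stood alone.

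Gene order in the reference annotation of the assembly Zm-B73-REFERENCE-NAM-5.0 was compared with this grouping by values. The annotation held the MIR395 loci in 3 runs with no other gene between them, of 4, 3 and 8 loci. The run of 4 was MIR395k, MIR395l, MIR395m and MIR395c, which includes all 3 names with the zma-miR395c values. The run of 3 was MIR395n, MIR395o and MIR395p. The run of 8 held MIR395a, MIR395b, MIR395d, MIR395e, MIR395f, MIR395g, MIR395h and MIR395i, whose guides fell into the zma-miR395a and the zma-miR395e entries. Guides of the run of 3 had these same values, zma-miR395n with zma-miR395a in both tables, and zma-miR395p with zma-miR395a at SP and with zma-miR395e at LP, so gene order and grouping by values did not match there. The assembly of the deposited tables is unknown from the labels and headers, so only names and order were taken from this one.

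Leaf held more miR395 guide than root during the low-phosphate course. In leaf, zma-miR395a stood at 5.56, 3.76, 3.45, 23.1 and 9.18 RPM on days 0, 1, 2, 4 and 8, from 75, 49, 55, 297 and 166 reads. In root it stood at 1.84, 2.62, 1.12, 2.86 and 1.81 RPM, from 30, 56, 23, 50 and 28 reads. Every leaf value lay above every root value, and the leaf library of day 4 was the highest of the 10. With the days of an organ taken as its repeats, leaf minus root was 1.43 on the log2(RPM + 1) scale (SE 0.444, limma adjusted p = 0.0144, leaf higher on 5 of 5 days). Without the leaf library of day 4 the difference was 1.04 (limma adjusted p = 0.0124).

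The star strands of the family differed among themselves in how they split between the organs. In leaf, zma-miR395e* was at 4.96, 2.69, 4.26, 11.6 and 9.29 RPM over the 5 days, and in root at 2.21, 2.48, 1.27, 2.35 and 0.517 RPM. Leaf was higher on each day, by 1.37 on the log2(RPM + 1) scale (SE 0.383, limma adjusted p = 0.0087). For zma-miR395n*, leaf stood at 3.70, 3.53, 4.51, 8.61 and 10.8 RPM over the 5 days, whereas the root cells of the table were blank on all 5 days. Cells were left blank when neither library of a comparison reached 1 RPM, so root held under 1 RPM of zma-miR395n* throughout, and all 5 leaf values lay above that limit. With blanks set to 0.5 RPM, its leaf minus root difference was 2.16 (SE 0.284, limma adjusted p = 0.000107), a value that depends on that setting.

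The star strand zma-miR395b* was the exception. It was at 5.41, 2.00, 4.58, 11.6 and 7.80 RPM in leaf and at 2.88, 4.21, 4.69, 3.95 and 1.62 RPM in root, so the organs overlapped. Its leaf minus root difference was 0.60 (SE 0.384, limma adjusted p = 0.192). The leaf library of day 1, its lowest leaf value, decided that call, since without it the difference was 0.88 (limma adjusted p = 0.0367). A count test on the reads recovered from the RPM values also called it, with a log2 difference of 1.77 (edgeR adjusted p = 0.00446), but in that fit the median over all entries was itself shifted by 1.10 toward leaf.

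In all, 4 of the 5 miR395 entries that passed the filter of 1 RPM in 2 libraries differed between the organs, all higher in leaf, with a median difference of 1.43. Over all 151 entries tested, 67.5% differed (50 higher and 52 lower in leaf) and the median difference was 0.00726. In the count test on recovered reads, which rescales libraries, 66 of all entries were higher and 25 lower. A call as such was therefore common in this comparison, and zma-miR395a and zma-miR395e among the 4 are the same reads. Also among the 4, zma-miR395n* passed the filter through leaf alone. Its root values were all filled blanks, so the size and p of its difference rest on the fill. That leaves the main guide and zma-miR395e* as called strands with measured values in both organs.

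**Figure D1:**
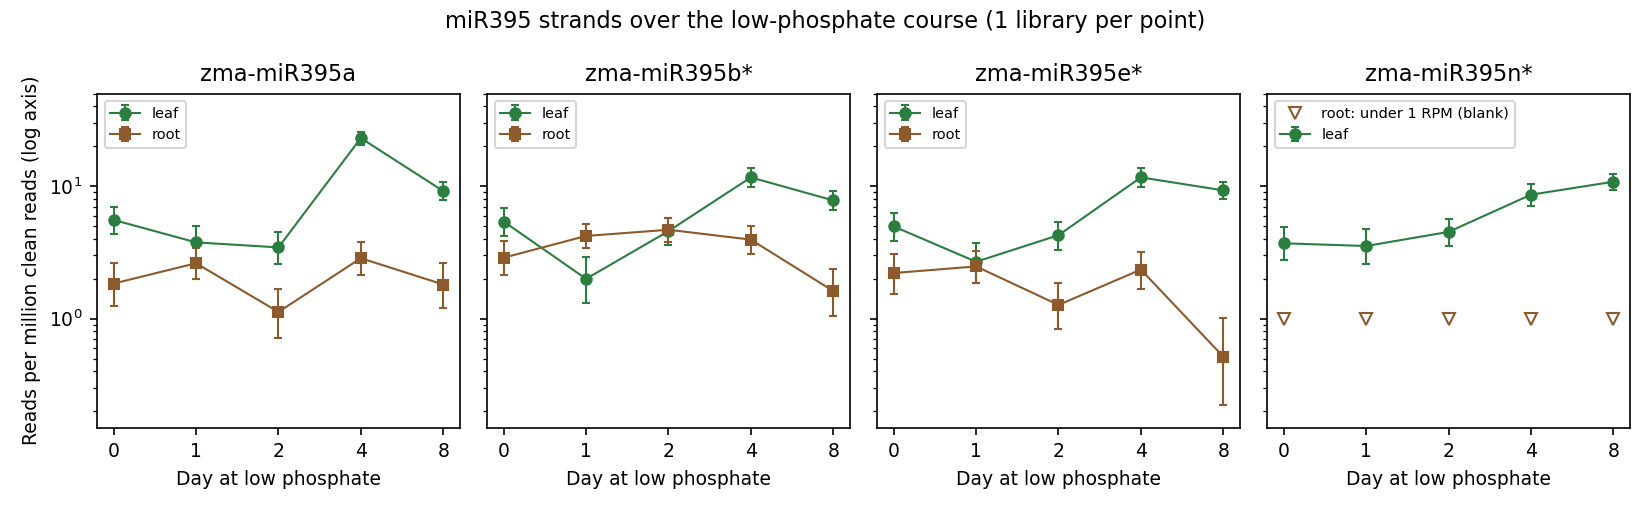
Level of the main guide (zma-miR395a) and of 3 star strands over the low-phosphate course, in RPM on a log axis, against days 0, 1, 2, 4 and 8 drawn at equal spacing; circles are leaf, squares are root, each point is 1 library and bars are 95% counting intervals. The guide reaches 23.1 RPM in leaf on day 4, and zma-miR395n* is drawn in root at its upper limit of 1 RPM (open triangles).

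The ratio of leaf to root changed from day to day. For zma-miR395a it was 3.02 on day 0 (counting interval 1.95 to 4.78), 1.44 on day 1 (0.959 to 2.15) and 3.07 on day 2 (1.86 to 5.24). It then reached 8.06 on day 4 (5.96 to 11.1) and 5.07 on day 8 (3.38 to 7.87). Day 1 was the only day on which the interval of the guide included 1, and the intervals of days 4 and 8 overlapped. The ratio of zma-miR395b* went from 1.87 on day 0 to 0.474 on day 1 (0.294 to 0.741) and to 4.83 on day 8 (3.14 to 7.71). That of zma-miR395e* was 18 on day 8 (8.91 to 42.3), from 168 leaf reads and 8 root reads. Divided by each library's summed listed miRNAs in place of its clean reads, the guide ratio was 9.78 on day 4 (7.23 to 13.5) and 10.3 on day 8 (6.87 to 16), so the order of these days turned, and on day 1 it was 1.99 (1.33 to 2.97). On that scale the day 1 ratio of zma-miR395b* was 0.657 (0.407 to 1.03), with an interval that includes 1. The day 8 ratios of zma-miR395b* and zma-miR395e* were 9.79 and 36.5.

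**Figure D2:**
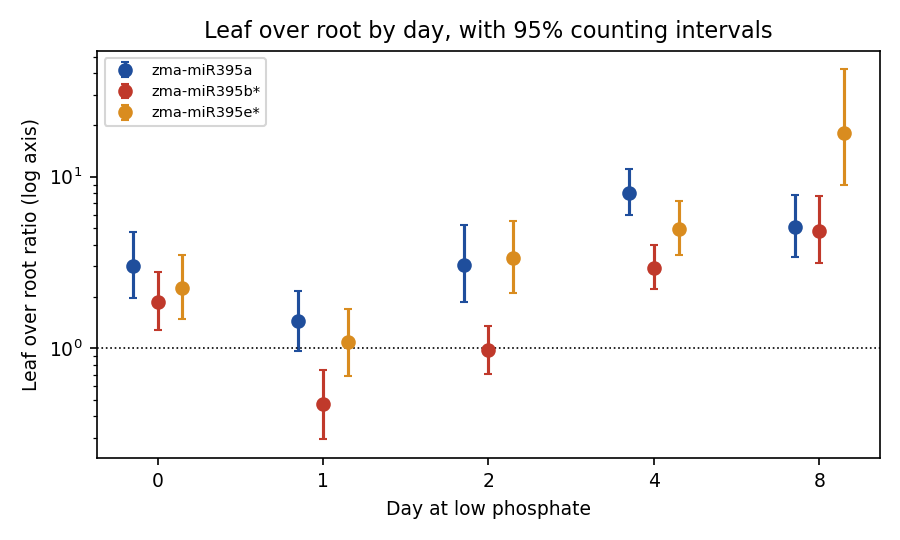
Leaf over root ratio of RPM (log axis) for zma-miR395a, zma-miR395b* and zma-miR395e* on each day of the low-phosphate course, with 95% counting intervals. Day 0 is the start of the treatment, and the dotted line marks equal levels. The values are per clean reads; all 3 strands are above the line on days 0, 4 and 8, and zma-miR395b* is at 0.474 on day 1.

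The leaf course had its highest guide value on day 4. Against day 0, zma-miR395a was 0.677 times as high on day 1 (counting interval 0.463 to 0.984) and 0.621 times on day 2 (0.430 to 0.891). It was 4.15-fold higher on day 4 (3.21 to 5.42) and 1.65-fold higher on day 8 (1.25 to 2.20). Day 4 was 2.51-fold above day 8 (2.07 to 3.05), so the guide was lower in the first 2 days, highest on day 4, and between the day 0 and day 4 values on day 8. These are ratios between single libraries with no replicate check.

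The star strands were also above day 0 in leaf on day 4, with smaller ratios than the guide. The ratio was 2.15 for zma-miR395b* (1.62 to 2.89), 2.35 for zma-miR395e* (1.75 to 3.18) and 2.33 for zma-miR395n* (1.65 to 3.32), whose interval overlapped that of the guide. On day 8 the order was different, with 1.44 for zma-miR395b* (1.08 to 1.94), 1.87 for zma-miR395e* (1.40 to 2.52) and 2.91 for zma-miR395n* (2.12 to 4.06). For zma-miR395n* day 4 was 0.799 times day 8 (0.627 to 1.01), so, unlike the guide, it was not higher on day 4 than on day 8. On day 1, zma-miR395b* was at 0.369 times its day 0 value (0.226 to 0.585) and zma-miR395e* at 0.542 times (0.349 to 0.827).

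The leaf values of days 4 and 8 were set beside those of all other miRNAs. On the log2(RPM + 1) scale, 4 of the 5 entries were at least 2-fold higher on day 4 than on day 0, and the fifth, zma-miR395b*, was just under that limit at 0.98. Over all 151 entries, 14.6% were at least 2-fold higher. The median difference was 1.08 for the miR395 entries and 0.216 for all entries, and the guide was 9th from the top. On day 8, 1 of the 5 (zma-miR395n*) was at least 2-fold higher, where 14.6% of all entries were, and the medians were 0.659 and 0. On day 1, 1 of the 5 (zma-miR395b*) was at least 2-fold lower, where 11.3% of all entries were. With 1 library a day, a property of the day 4 library and a change in the plants cannot be told apart.

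**Figure D3:**
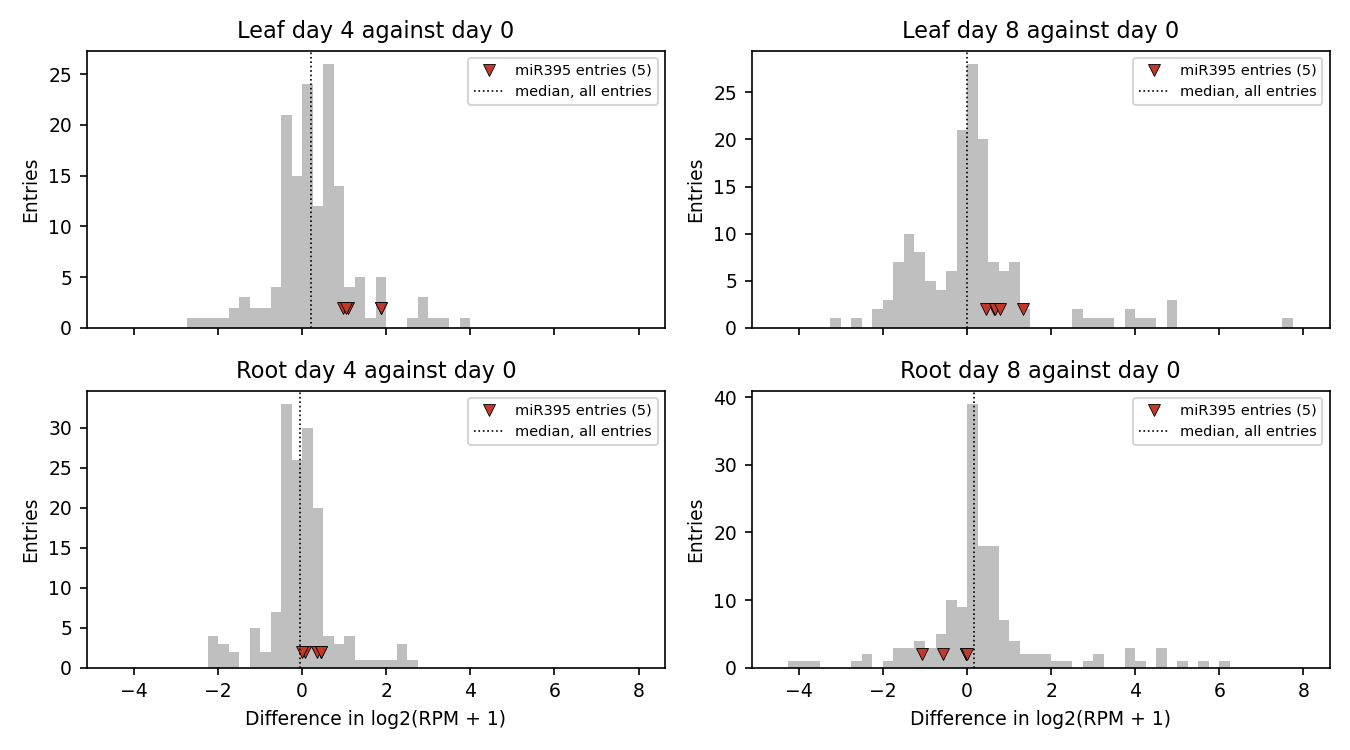
Histograms of the difference in log2(RPM + 1) from day 0 for the 151 entries tested, in leaf and root on days 4 and 8, with the 5 miR395 entries as triangles and the median of all entries as a dotted line. In leaf on day 4 the miR395 entries sit at 0.98 or above, whereas in root on day 8 the lowest, zma-miR395e*, is at -1.08; zma-miR395n* is at 0 in root because its cells are blank.

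The size of the leaf day 8 ratios depended on what the reads were divided by. The listed miRNAs summed to 1582317 RPM in leaf on day 0 and to 725756 RPM on day 8, sums that count a shared read once for each row. Divided by those sums, zma-miR395a was 3.6-fold higher on day 8 and 5.76-fold higher on day 4 than on day 0, in place of 1.65 and 4.15. On the same scale its ratio was 1.04 on day 1 (0.711 to 1.51) and 0.726 on day 2 (0.503 to 1.04), so the lower guide values of these days did not exceed counting error there. The day 1 ratio of zma-miR395b* was 0.567 (0.348 to 0.899) and that of zma-miR395e* was 0.832 (0.537 to 1.27). The day 8 ratio of zma-miR395n* was then 6.35.

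In root the guide gave no ratio to day 0 whose counting interval left out 1. The ratios of zma-miR395a were 1.42 on day 1 (0.897 to 2.30), 0.610 on day 2 (0.338 to 1.09), 1.55 on day 4 (0.969 to 2.53) and 0.983 on day 8 (0.566 to 1.70). The root guide rested on 23 to 56 reads a library, so changes of this size were not detectable at that depth. The root star strands were lower on day 8. There zma-miR395e* had 8 reads, a ratio of 0.234 (0.094 to 0.512), and zma-miR395b* had a ratio of 0.560 (0.331 to 0.929). On day 8 in root, 1 of the 5 miR395 entries (zma-miR395e*) was at least 2-fold lower, where 11.3% of all entries were. Earlier, zma-miR395b* was 1.46 times its root day 0 value on day 1 (1.01 to 2.12) and 1.62 times on day 2 (1.13 to 2.35). Divided by the listed sums, the day 1 ratio was 1.34 (0.934 to 1.95) and that of day 2 was 1.54 (1.07 to 2.23). In contrast, zma-miR395e* was already lower in root on day 2, at 0.574 times its day 0 value (0.333 to 0.978). By the listed sums that ratio was 0.544 (0.315 to 0.926).

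Over the whole course no miR395 entry passed the test of a trend with log2(day + 1). In leaf the slopes were 0.44 for zma-miR395a (limma adjusted p = 0.341), 0.35 for zma-miR395b* (adjusted p = 0.408), 0.41 for zma-miR395e* (adjusted p = 0.312) and 0.48 for zma-miR395n* (SE 0.129, adjusted p = 0.0601), with 5.3% of all entries called. The leaf slopes moved with single libraries: that of zma-miR395a was 0.76 without leaf day 0, 0.68 without leaf day 8 and 0.23 without leaf day 4. That of zma-miR395b* was 0.77 without leaf day 0, 0.23 without leaf day 1 and 0.24 without leaf day 4, and that of zma-miR395e* was 0.76 without leaf day 0. With scaling to listed reads the slopes were 0.71, 0.62, 0.67 and 0.74, and all 5 entries had an unadjusted p under 0.05, 1 of which (zma-miR395n*) passed after adjustment. In the fit per clean reads all 4 leaf slopes were above 0, and 1 of the 5 entries had an unadjusted p under 0.05, zma-miR395n* at 0.00449. Its call depended on single libraries, since the slope was 0.68 (limma adjusted p = 0.0358) without leaf day 0 and 0.45 (adjusted p = 0.0369) without leaf day 4. In these limma fits the spread is pooled over both organs, and all root values of zma-miR395n* were the same filled blank. Its SE and p-values were thereby lowered, so they cannot be set beside those of the other entries. In root the slopes were 0.01 for zma-miR395a, -0.16 for zma-miR395b* and -0.29 for zma-miR395e* (lowest limma adjusted p of the family 0.701), again with 5.3% of all entries called. By edgeR on the recovered reads, 0 of the 5 miR395 entries passed in either organ, with 1 unadjusted p under 0.05 in leaf and 0 in root.

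The difference between the leaf slope and the root slope was tested in the same fit, a test added after the values were seen. It was 0.43 for zma-miR395a, 0.51 for zma-miR395b*, 0.70 for zma-miR395e* (unadjusted p = 0.0447) and 0.48 for zma-miR395n* (unadjusted p = 0.0268), and limma called 0 of 151 entries, or 0%. For zma-miR395n* the root values were all filled blanks, so its root slope was 0 by construction and its difference is its leaf slope alone. Among all entries 9 had an unadjusted p under 0.05, of which 2 were miR395 entries (zma-miR395n* being 1 of them), and edgeR on the recovered reads also called 0. A leaf course that differs from the root course is thus not shown by this test, which fits a straight line and does not describe a single high day.

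The rare guide zma-miR395c appeared in 1 library. In leaf on day 8 it had 21 reads, or 1.16 RPM (0.719 to 1.78), and in leaf on day 0 it had 0 reads. Against a floor of 3 reads in the day 0 library (0.222 RPM), it was at least 5.23-fold higher on day 8. On days 1, 2 and 4 in leaf, and on every day in root, its cells were blank, which means under 1 RPM and not 0. It did not pass the filter, and a trend fitted without the filter would rest on the value put in for the blanks.

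In the authors' deposited table, marks for a significant difference from day 0 were set on 5 of the 6 miR395 entries in leaf on day 4 (all but zma-miR395c), and on 2 in leaf on day 8 (zma-miR395c and zma-miR395n*). The authors' deposited table also marked 1 in leaf on day 1 (zma-miR395b*) and 1 in root on day 8 (zma-miR395e*), and 0 on the other days. Those marks compare single libraries, and how they were tested is not given in the sources that were at hand.

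At sufficient phosphate the family was rare in both organs. The guide zma-miR395a had 13 and 4 counts in the 2 leaf libraries of day 0 and 8 and 6 in those of day 8. In root it had 13 and 2 counts on day 0 and 7 and 8 on day 8. The range within a group was as wide as that between the groups, and the libraries overlapped in every comparison. As counts per 1000000 after TMM scaling (CPM), the leaf means were 0.968 ± 0.769 on day 0 and 0.695 ± 0.0245 on day 8, and the root means 0.625 ± 0.612 and 0.751 ± 0.194 (SD, n = 2 each).

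Among the star strands, zma-miR395b* set the organs apart on day 0. It had 12 and 4 counts in leaf and 36 and 24 in root on day 0, and 7 and 15 in leaf and 21 and 16 in root on day 8. Root lay above leaf in both libraries of day 0, at 2.62 ± 0.441 CPM against 0.910 ± 0.686 CPM (SD, n = 2 each), and still did so on day 8, at 1.81 ± 0.0476 against 1.16 ± 0.757 CPM. On day 0 the leaf minus root difference was -1.55 on the log2 scale (SE 0.534, edgeR adjusted p = 0.0196), and on day 8 it was -0.70 (SE 0.536, adjusted p = 0.277).

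For zma-miR395e* the counts were 8 and 4 in leaf and 10 and 13 in root on day 0, and 8 and 11 in leaf and 15 and 8 in root on day 8. Its leaf minus root difference was -0.60 for day 0 and -0.23 for day 8 (edgeR adjusted p = 0.325 and 0.7). That of zma-miR395a was 0.53 and -0.08 (edgeR adjusted p = 0.5 and 0.962).

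In total, 1 of the 4 miR395 entries that passed the filter of 10 counts in 2 libraries differed between the organs on day 0, where 79.9% of all 149 entries did, and 0 of 4 on day 8, where 75.8% did. Both days' calls of zma-miR395b* depended on 1 leaf library. Without replicate 2 of leaf day 0 the day 0 difference was -0.92 (edgeR adjusted p = 0.186), and without replicate 2 of leaf day 8 the day 8 difference was -1.52 (adjusted p = 0.0325). The day 8 call also turned with the scaling, at -1 with median-ratio scaling (edgeR adjusted p = 0.0418) and -1.29 with scaling to listed reads (adjusted p = 0.0238).

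Scaling mattered for the organ comparison at SP. The TMM factors of leaf lay between 0.734 and 0.937 and those of root between 1.23 and 1.29, and the median over all entries on day 0 was 0.358 with TMM and -0.408 with scaling to listed reads. The calls over all entries on day 0 were 65 higher and 54 lower in leaf with TMM, and 41 and 69 with listed reads. In all SP fits the listed reads were summed with merged rows counted once. The SP ratios with listed reads given below were instead divided by sums over all rows. Over both days, zma-miR395a had 31 leaf and 30 root counts, a leaf over root ratio of 1.17 (counting interval 0.684 to 2.00) with TMM and 0.773 (0.452 to 1.32) with listed reads, so its direction was not determined. For zma-miR395b* the ratio was 0.443 (0.296 to 0.651) and 0.293 (0.196 to 0.430), root being higher under both. For zma-miR395e* it was 0.762 (0.467 to 1.23) and 0.504 (0.309 to 0.812).

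**Figure D4:**
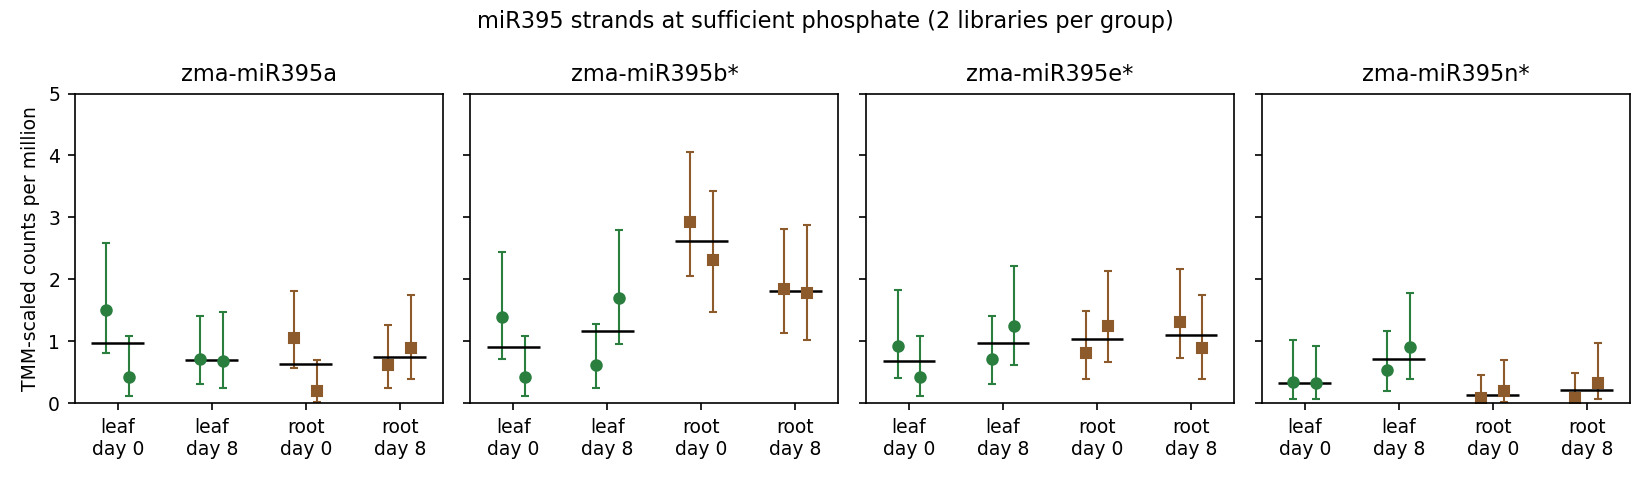
TMM-scaled CPM of the main guide and 3 star strands in the 8 libraries at sufficient phosphate, leaf as circles and root as squares, with 95% counting intervals; the horizontal line is the mean of 2 libraries. The 2 root libraries of day 0 lie above the 2 leaf libraries for zma-miR395b*, at a mean of 2.62 against 0.910, and the organs overlap for zma-miR395a.

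The rarest star strands stayed under the filter. In leaf, zma-miR395n* had 3 and 3 counts on day 0 and 6 and 8 on day 8, and in root 1 and 2 on day 0 and 1 and 3 on day 8. That gave 20 leaf and 7 root counts, a leaf over root ratio of 3.23 with TMM (1.31 to 9.04) and 2.14 with listed reads (0.868 to 5.98), so leaf was higher in both but the counting interval of the second included 1. The strand zma-miR395i* had 0 to 3 counts a library and zma-miR395a* 0 or 1. A value of 3 counts corresponds to 0.244 to 0.349 CPM in these libraries, and levels under that were not resolved.

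No miR395 entry passed the threshold between the growth stages at SP, in either organ. In leaf, day 8 minus day 0 was -0.44 for zma-miR395a (SE 0.709, edgeR adjusted p = 0.860), 0.31 for zma-miR395b* (SE 0.618, adjusted p = 0.860) and 0.51 for zma-miR395e* (SE 0.552, adjusted p = 0.834). These leaf values rested on single libraries. The guide reached 10 counts in only 2 libraries, replicate 1 of leaf day 0 and replicate 1 of root day 0. Leaving out either took it below the filter, so it has no value in those fits. Without replicate 2 of leaf day 0, zma-miR395a was at -1.1, zma-miR395b* at -0.32 and zma-miR395e* at 0.04. For zma-miR395b* the difference was 1.37 without replicate 1 of leaf day 0, 0.92 without replicate 1 of leaf day 8 and -0.51 without replicate 2 of leaf day 8, so its direction was not determined. For zma-miR395e* it was 1.15, 0.88 and 0.09 without the same libraries. The leaf test called 0 of 4 miR395 entries and 10.1% of all entries. In root the differences were 0.17, -0.53 and 0.14, with SE of 0.717, 0.462 and 0.471 and edgeR adjusted p of 0.917, 0.634 and 0.917. Without replicate 2 of root day 0, zma-miR395a was at -0.58, and without replicate 1 of root day 8, zma-miR395e* was at -0.33, so these signs also turned. The root test called 0 of 4, and 0% of all 149 entries, although 22 had an unadjusted p under 0.05 and DESeq2 called 8. No miR395 entry had an unadjusted p under 0.05 in either organ by edgeR or DESeq2. The counts left wide limits, with a day 8 over day 0 ratio of zma-miR395a of 0.739 in leaf (0.337 to 1.59) and 1.11 in root (0.507 to 2.44).

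The stage change of leaf was set against that of root by the interaction of organ and stage. It was -0.61 for zma-miR395a (SE 1.01, edgeR adjusted p = 0.924), 0.85 for zma-miR395b* (SE 0.773, adjusted p = 0.783) and 0.37 for zma-miR395e* (SE 0.725, adjusted p = 0.924). Of the 4 miR395 entries 0 passed, against 6.04% of all entries, and 0 had an unadjusted p under 0.05 by edgeR or DESeq2.

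The balance of guide and star reads within a library does not depend on its depth or scaling, and was compared between the organs after the values were seen. The guide reads are shared by 8 rows at SP and 7 at LP, whereas zma-miR395b* is 1 row. A share is therefore not the strand balance of a single hairpin, and which loci gave the guide reads is not known. At LP, zma-miR395a made up 50.7, 65.3, 43.0, 66.4 and 54.1% of the summed zma-miR395a and zma-miR395b* reads in leaf on days 0, 1, 2, 4 and 8. In root the shares were 39, 38.4, 19.3, 42 and 52.8%. The leaf mean was 55.9 ± 9.97% and the root mean 38.3 ± 12.1% (SD over 5 days each), and the leaf share was above the root share of the same day on 5 of 5 days, by 1.24 to 27 points. Taken as pairs by day, the exact two-sided permutation p was 0.0625, the smallest that 5 pairs allow. With day ignored, the exact permutation p was 0.0317, or 0.114 adjusted over the 4 share tests made without pairs.

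At SP the same share was 46.0 ± 11.7% in leaf and 23.1 ± 10.9% in root (SD, n = 4 each, exact two-sided permutation p = 0.0571, adjusted p = 0.114). The lowest leaf library was at 28.6% and the highest root library at 33.3%. The guide share was thus higher in leaf by 17.6 points at LP and 22.8 points at SP, and neither difference passed the threshold after adjustment. Against zma-miR395e* the guide share at LP was 54.4% in leaf and 55.3% in root, a leaf minus root difference of -0.897 points (exact permutation p = 0.897). At SP it was 49.3 and 37.9% (exact permutation p = 0.4, adjusted p = 0.533).

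Within leaf at LP, the library of day 4 had the highest guide share against each of the 3 star strands. It was 66.4% against zma-miR395b* (counting interval 61.9 to 70.8%), 66.4% against zma-miR395e* (61.9 to 70.8%) and 72.8% against zma-miR395n* (68.2 to 77.1%). Against zma-miR395b* day 1 was close, at 65.3% (53.5 to 76.0%). Against zma-miR395n* the other leaf days ranged from 43.3 to 60.0%, and the interval of day 0 (50.9 to 68.7%) was the only one of these to overlap that of day 4.

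**Figure D5:**
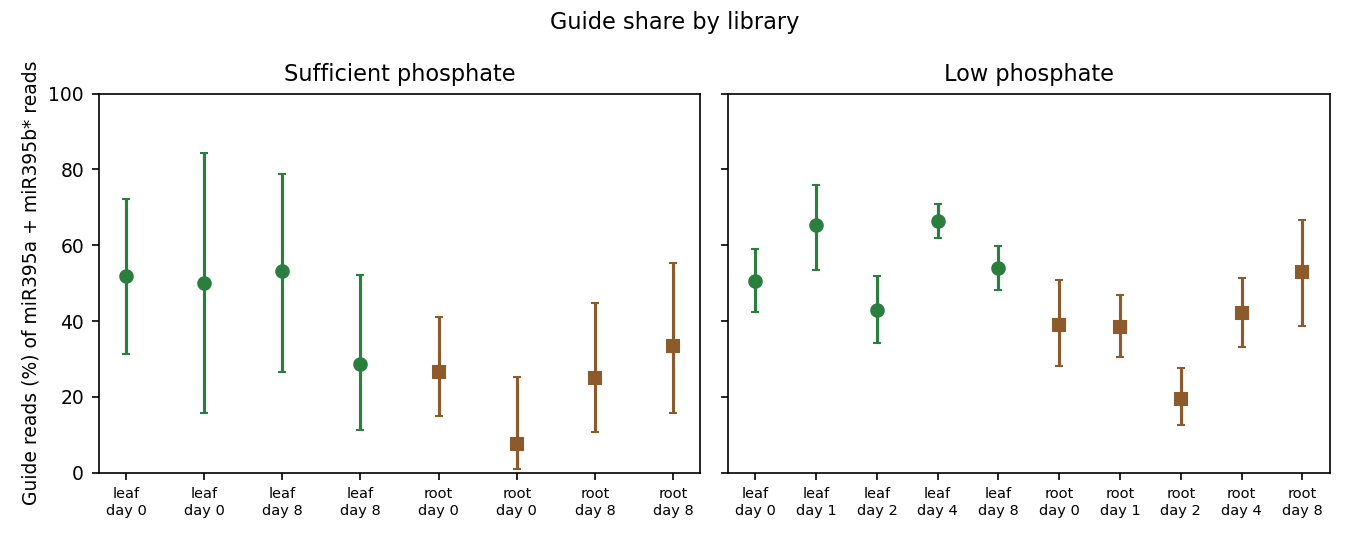
Share of zma-miR395a reads (%) in the sum of zma-miR395a and zma-miR395b* reads for each library, at sufficient phosphate (left) and low phosphate (right), leaf as circles and root as squares, with 95% exact binomial intervals. The means are 46.0% in leaf and 23.1% in root at sufficient phosphate, and 55.9% and 38.3% at low phosphate, and the ranges of the organs overlap.

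Among all listed miRNAs the guide was of middle to low abundance. In leaf at LP it ranked 66th to 101st from the top of 156 entries, with its best rank on day 4, and in root 101st to 120th. At SP it ranked 118th to 150th of 197. Per 1000000 listed reads zma-miR395a stood at 3.51 in leaf on day 0 of the LP table and at 1.05 and 0.28 in leaf on day 0 of the SP table, and at 12.7 in LP leaf on day 8 beside 0.602 and 0.457 in SP leaf on day 8. The tables were made and normalized separately and their day 0 values already differ, so no comparison between the media was made.

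Other miRNA families tied to mineral nutrition gave a different picture in the same libraries. In leaf on day 8 at LP, 11 of 11 entries of the phosphate starvation families (miR399 and miR827) were at least 2-fold higher than on day 0, with a median difference of 4.05. In the same comparison 12 of 14 entries of the copper-related families (miR397, miR398, miR408 and miR528) were at least 2-fold lower, with a median of -1.73. The miR408 guides were not among these 12, with zma-miR408 at 0.577 and zma-miR408b at 0.580, whereas zma-miR408b* was at -3.20. In leaf on day 4, 8 of the 14 copper entries were at least 2-fold lower and 2 higher. The lists also named miR2111 (phosphate) and miR857 (copper), but no entry of these was tested. Over all entries in leaf on day 8, 14.6% were at least 2-fold higher and 21.2% at least 2-fold lower. The miR395 median there was 0.659, with 1 of 5 entries at least 2-fold higher. In leaf on day 4, 4 of 11 phosphate entries were at least 2-fold higher (median 0.585), against 4 of 5 miR395 entries (median 1.08) and 14.6% of all entries. That phosphate median is not a measured change, since 0.585 is what a blank filled at 0.5 RPM gives against 0 reads. The entries zma-miR399a, zma-miR399b, zma-miR399c* and zma-miR399e* all stood at that value, so the 2 medians cannot be set beside each other. In root on day 8 the medians were 4.69 for the phosphate entries, -1.70 for the copper entries and -0.0158 for miR395. That miR395 median counts the main guide as both zma-miR395a and zma-miR395e, and the blank zma-miR395n* as 0. The star strands zma-miR395b* and zma-miR395e* were at -0.57 and -1.08. Of the entries of miR169, whose targets are NF-Y transcription factor subunits, 7 of 21 were at least 2-fold lower in leaf on day 8 and 0 higher. In leaf on day 4, 3 of the 21 were at least 2-fold higher and 1 lower, and in root on day 8, 2 were higher and 3 lower.

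The main guide was taken here as zma-miR395e, the guide entry with the highest mean. The entries nearest to it in profile were found by the root mean square difference of log2 levels, each centred on its own mean. Over the 10 LP libraries these were zma-miR166l at 0.557, zma-miR171d* at 0.586, zma-miR390a at 0.589, zma-miR393c at 0.595 and zma-miR393a at 0.610, where the median of 146 candidates was 1.30. The guide itself varied by 0.983 about its mean, so the nearest profiles followed it in part. Over the 8 SP libraries the nearest were zma-miR169k at 0.277, zma-miR169j at 0.278, zma-miR169i at 0.279, zma-miR171i at 0.307 and zma-miR171f at 0.312. There the guide varied by only 0.311, so a flat profile would have come about as near.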

How the data were processed

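Small RNA tags from HiSeq runs were cleaned and annotated by the authors, per the series' design text; which aligner, miRBase release and build they used is not given in the labels or headers. For SP the authors deposited whole-number counts per miRNA, read here as raw although the headings carry an unexplained suffix. For LP the authors deposited a normalized signal, the count divided by total clean reads times 1000000 (RPM), in which 0.01 stands for 0 reads and blanks for comparisons with neither library at 1 RPM. Depth was recovered from the steps of low values, all whole within 0.03 reads. SP counts were tested with edgeR 4.0.16 (TMM, robust quasi-likelihood, at least 10 counts in 2 libraries, 4 residual degrees of freedom), with SE computed as the absolute log2 change over the square root of F. LP values were tested with limma 3.58.1 (trend and robust) on log2(value + 1), blanks at 0.5, at least 1 RPM in 2 libraries; this scale understates changes of low values. Adjusted p-values are Benjamini-Hochberg values over all entries of a comparison, with a threshold of 0.05. DESeq2 1.42.0, other scalings, filters, pseudocounts, a replicate block and leaving out each library were alternatives. Both tests were checked on simulated data. At SP the changes were planted in entries with a higher mean count than any miR395 entry, and at LP no blanks were simulated. The check therefore does not cover SP entries as low as miR395, nor filled blanks. The replicates at SP are pools of plants. All miR395 entries were named, with the 5 nearest profiles per table, and other nutrient families as counts and medians. The members, lists and tests were chosen with earlier results of these data known. A separate deposited table of differential miRNAs was not used.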

Additional observations from a re-analysis of the deposited data

Results flagged for a closer look

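At low phosphate, 3 pairs of values moved in opposite directions from day 0 in leaf and root, each beyond counting error per clean reads but each between single libraries. For zma-miR395b* on day 1 the ratio to day 0 was 0.369 in leaf and 1.46 in root. Divided by the summed listed miRNAs, the root ratio was 1.34 (0.934 to 1.95), so its counting interval then included 1. For zma-miR395b* on day 8 it was 1.44 in leaf and 0.56 in root. For zma-miR395e* on day 8 it was 1.87 in leaf and 0.234 in root, the latter from 8 reads. The difference between the organs on a single day was not tested, since each organ had 1 library a day. The difference between their slopes over the course was tested by limma and called 0 entries, with unadjusted p of 0.0447 for zma-miR395e* and 0.161 for zma-miR395b*.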

How the results depend on the processing

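Of 565 values of single miR395 entries under the alternatives, 555 kept their side of the threshold, 1 lost its call, 9 gained one and 0 turned direction with a call. Another count, 40, changed sign without a call in either fit. The tally overstates stability, since it counts the main guide as both zma-miR395a and zma-miR395e. It also takes in root slopes of zma-miR395n*, which rest on filled blanks alone, and DESeq2 interaction fits that gave these entries no adjusted p. The miR395 calls between the organs at LP stayed at 4 or 5. At SP on day 0 there were 2 miR395 calls, in place of 1, with scaling to listed reads (zma-miR395e* at -1.35, edgeR adjusted p = 0.0347) and 0 to 1 with a library left out; on day 8 there was 1, in place of 0, with median-ratio scaling and with listed reads, and 0 to 1 with a library left out. The LP leaf trend had 1 miR395 call, in place of 0, without the filter (zma-miR395c, resting on filled blanks), 1 (zma-miR395n* at 0.74, limma adjusted p = 0.017) with listed reads, which was added after the data were seen, and 0 to 1 with a library left out. The spread of zma-miR395n* in these fits was lowered by its filled root blanks. Over all entries, SP leaf stage calls were 15, and 6 with median-ratio scaling, 6 without the filter, 8 with DESeq2 and 0 to 18 with a library left out (0 without replicate 2 of leaf day 0). SP root stage calls were 0, and 15, 7 and 8 under the same settings, 11 with listed reads and 0 to 19 with a library left out. Interaction calls were 9, and 4, 5 and 5 under the same settings, 5 with listed reads and 0 to 20 with a library left out. LP leaf trend calls were 8, with 16 by edgeR on recovered reads and 0 to 18 with a library left out (0 without leaf day 8). LP root trend calls were 8, with 17 at a pseudocount of 0.5, 22 by edgeR on recovered reads and 0 to 18 with a library left out (0 without root day 8). The cause of these shifts was not tested. Scaling to listed reads moved the median of all LP leaf slopes from 0.0406 to 0.304. With the replicate block, which the shared replicate numbers do not justify (correlations of same-numbered deviations from -0.171 to 0.309), there was 1 SP interaction call, leaf stage calls were 13 and no miR395 call changed; with the root day 8 numbers crossed in the block, root stage calls were 13. Depth limits the SP values, where the main guide had 2 to 13 counts a library, and 1 library a day limits every LP ratio.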
